A study of Mus musculus with 12 samples.

Results

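The 9 genes described here, Itgam, Itgal, Itgax, Itgb2, Itga4, Itgb1, Itgb7, Itgb3 and Selplg, encode leukocyte integrin chains and the main selectin ligand. They were chosen by name from the 23309 genes that the RNA-seq table lists. All 9 were found, and 8 of them were among the 11516 genes tested, those with at least 1 FPKM (fragments per kilobase of transcript, scaled to the mapped fragments) in at least 2 of the 12 libraries. Itgax did not reach that level.

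The cells are mouse bone marrow progenitors selected for CD117, on a C57BL/6 background, and carry a retrovirus for ER-HoxB8, in which HoxB8 is joined to the estrogen receptor and holds them as immature myeloid progenitors while estradiol (E2) is present. HMGN1-OE cells come from mice with a human HMGN1 transgene and wild-type cells from littermates without it. Both genotypes carry the fusion and were cultured with interleukin 3. Libraries were made at 0 h, in E2, and at 36 and 96 h after E2 was withdrawn, 2 per genotype and time. The sample names number these 2 as replicates, and the study calls them biological duplicates. It is not stated whether they came from separate mice or cultures, so p-values here measure only the spread between the libraries.

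An integrin is a pair of an alpha and a beta chain on the cell surface. The alpha chains Itgam (CD11b), Itgal (CD11a) and Itgax (CD11c) each pair with Itgb2 (CD18) to form Mac-1, LFA-1 and p150,95, which neutrophils use to adhere to vessel walls and, with Mac-1, to bind complement-coated particles. The alpha chain Itga4 pairs with Itgb1 to form VLA-4, which holds progenitors to marrow stroma, or with Itgb7 to form a receptor for gut endothelium. Itgb3 pairs with the platelet chain Itga2b or with Itgav, and Selplg (PSGL-1) is the protein on which leukocytes roll along selectins. CD11b is a standard surface marker of myeloid maturation.

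Values are FPKM that the authors set to the level of synthetic ERCC RNAs added to a fixed number of cells, which is meant to give a level per cell. On this scale the median of the tested genes was lower at 96 h than at 0 h, by 1.75 in log2 units in wild-type cells and by 1.28 in HMGN1-OE cells. Changes are therefore given on the scale as deposited and, for the 8 tested genes and most others named, also relative to the median of each library. Genes without signal are listed near 0.1, and the depth of the libraries is unknown. In bulk RNA, fewer cells with a transcript and less transcript per cell cannot be told apart.

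The libraries were compared with their labels first. The late neutrophil markers summed to between 194.7 and 2950 FPKM at 0 and 36 h and to between 66957 and 172778 at 96 h. The immature markers summed to between 869 and 2117 FPKM at 0 and 36 h and to between 31.8 and 84.5 at 96 h. The wild-type libraries at 36 h stood apart from each other. One of them, called library b here, had 67.0 FPKM of the progenitor cytokine receptor Flt3, within the range of the 0 h libraries (47.5 to 82.2), whereas library a had 4.10 and the HMGN1-OE libraries at 36 h had 7.53 and 9.31. Relative to the library medians, library b was nearer than library a to the wild-type mean at 0 h in 7 of the 8 immature markers and in 7 of the 8 tested integrin and ligand genes. The share over all tested genes was not computed, so these counts describe the libraries and no trait of the genes. Library a had the highest sum of mast cell and basophil markers, 2943 FPKM, against 907 in library b and between 142 and 1271 in the others. Calls and differences that rest on the wild-type cells at 36 h are in the main also given without library b, an omission chosen after the values were seen, or without library a. The sums of lymphoid (4.5 to 29.7 FPKM), stromal and endothelial (1.1 to 2.2) and macrophage and dendritic markers (9.7 to 74.1) were low, and 7 of the 10 lymphoid and 5 of the 10 listed macrophage and dendritic markers were at or below 0.2 FPKM in every library. Some markers of other cells nevertheless rose with Itgam between 0 and 96 h in both genotypes. The macrophage receptor gene Csf1r went from between 0.32 and 1.13 FPKM to between 7.17 and 13.5, the T cell gene Cd3d from between 0.16 and 0.32 to between 3.14 and 9.11, and the mast cell tryptase gene Tpsb2 from between 0.15 and 0.42 to between 4.20 and 19.6. Other markers of these lists fell. The B cell gene Cd79b went from between 6.50 and 14.5 FPKM to between 0.10 and 1.93. The mast cell gene Cpa3 went from between 255 and 540 to between 39.1 and 168. The sums of the lymphoid, macrophage and dendritic, and mast cell and basophil lists overlapped between 0 and 96 h. The part of other cells in the rise of Itgam was not tested. Mouse Hmgn1 overlapped between the genotypes, with 4.71 to 183 FPKM in wild-type cells and 10.1 to 200.6 FPKM in HMGN1-OE libraries, and the human transgene was not analysed here.

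At 96 h the transcripts for Mac-1 were high in both genotypes, those for VLA-4 were low, and those for the alpha chain of LFA-1 and for the selectin ligand overlapped their values at 0 h. In wild-type cells 5 of the 8 tested genes were called between 0 and 96 h, 3 higher (Itgam, Itgb2 and Itgb7) and 2 lower (Itga4 and Itgb1). A call is an adjusted p-value under 0.05 by limma with Benjamini-Hochberg adjustment over all tested genes. Of all tested genes, 81.5% were called in this comparison, 4.31% higher and 77.2% lower. In HMGN1-OE cells 6 of the 8 were called, 3 higher and 3 lower, with Itgb3 as the additional lower gene, against 67.5% of all genes (5.08% higher and 62.4% lower). The median of the 8 genes was -0.35 in wild-type cells and -0.26 in HMGN1-OE cells, against -1.75 and -1.28 for all genes. Against the library medians, all 8 were called in wild-type cells, 6 higher and 2 lower (70.3% of all genes, 36.5% higher and 33.8% lower), and 7 in HMGN1-OE cells, 5 higher and 2 lower (63.4%, 30.9% higher and 32.5% lower). Itga4 and Itgb1 were the 2 lower genes in both.

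**Figure D1:**
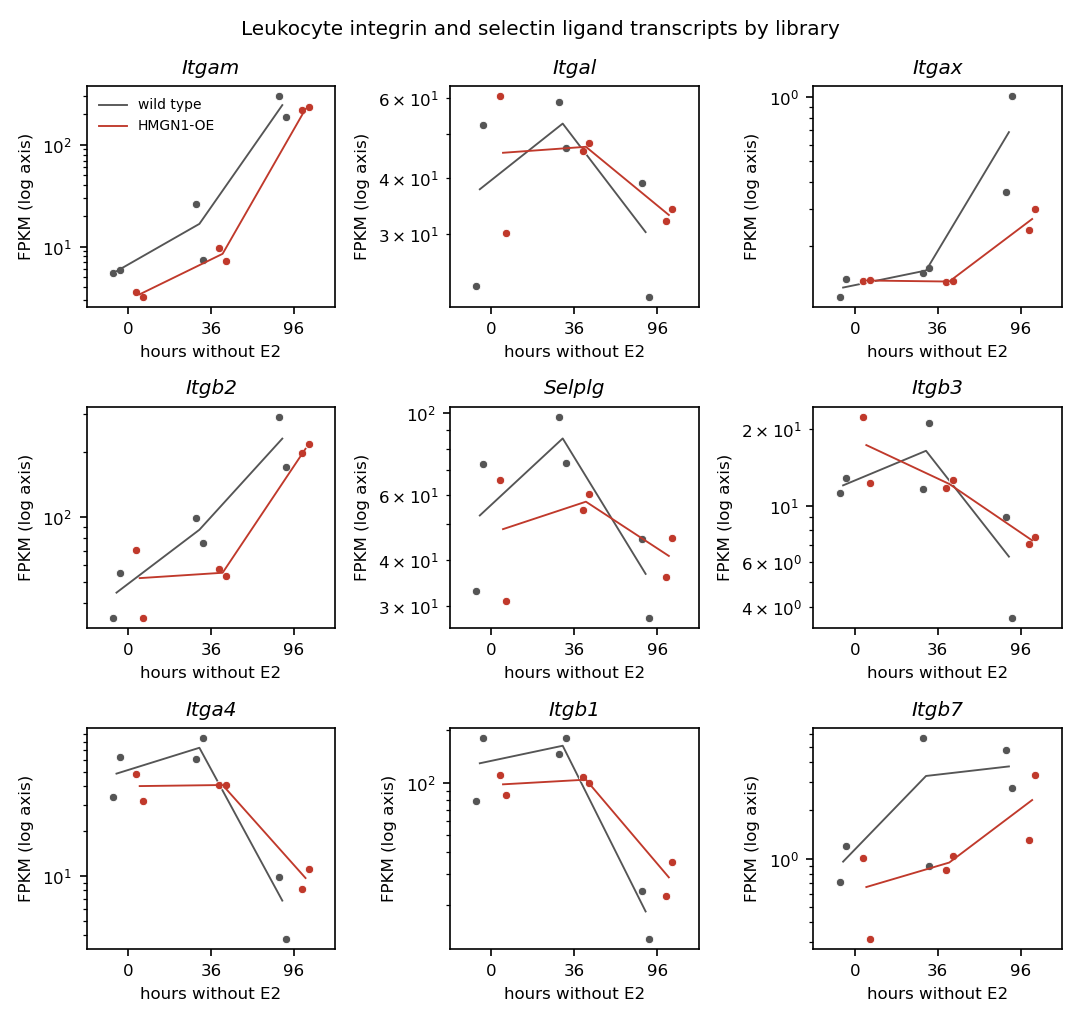
FPKM of the 9 genes (log axis) in each library by hours without E2, with a point for each library and a line through the mean of the 2 libraries of each genotype and time. Itgam spans 3.19 to 5.91 FPKM at 0 h and 189.7 to 301.7 at 96 h, while Itga4 goes from 31.6 to 63.3 down to 3.75 to 11.1.

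Itgam, the alpha chain of Mac-1, had 5.52 and 5.91 FPKM in wild-type libraries at 0 h, 26.0 and 7.43 at 36 h, and 301.7 and 189.7 at 96 h. In HMGN1-OE libraries it had 3.59 and 3.19 FPKM at 0 h, 9.77 and 7.18 at 36 h, and 217.7 and 232.9 at 96 h. All 4 libraries at 96 h lay above all libraries of the earlier times, and library a was the highest at 36 h. Itgam rose between 0 and 96 h by 5.16 on the log2(FPKM + 1) scale in wild-type cells (35.8-fold, standard error 0.52, limma adjusted p = 4.58e-21) and by 5.69 in HMGN1-OE cells (51.6-fold, limma adjusted p = 1.69e-25). Relative to the library medians the differences were 7.01 and 7.00 (limma adjusted p = 8.05e-06 and 1.54e-05). Most of this lay after 36 h, with a change of 3.99 from 36 to 96 h in wild-type cells and 4.59 in HMGN1-OE cells (limma adjusted p = 3.03e-13 and 1.61e-16). From 0 to 36 h the differences were 1.17 and 1.10 and were not called (limma adjusted p = 0.589 and 0.801). In wild-type cells the difference from 0 to 36 h was 2.01 without library b (limma adjusted p = 0.155) and 0.33 without library a, and that from 36 to 96 h was 3.16 and 4.83, called in both fits.

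Itgb2, the beta chain that the alpha chains of Mac-1 and LFA-1 share, was already abundant in progenitors. It had 34.2 and 55.2 FPKM in wild-type libraries at 0 h, 98.7 and 76.2 at 36 h, and 291.3 and 171.6 at 96 h. The HMGN1-OE libraries held 70.3 and 34.1 FPKM, then 57.3 and 53.3, then 197.8 and 217.6. The 96 h libraries did not overlap with those of any earlier time. Itgb2 rose by 2.34 in wild-type (5.05-fold, standard error 0.57, limma adjusted p = 8.80e-05) and by 2.06 in HMGN1-OE cells (4.17-fold, limma adjusted p = 0.000923) in log2 units. It was higher by 4.18 and 3.37 relative to the library medians (limma adjusted p = 3.44e-06 and 1.12e-05). In HMGN1-OE cells its adjusted p was 0.0530 without 1 of the libraries at 0 h, the one at 34.1 FPKM.

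Itgal, the alpha chain of LFA-1, had 23.0 and 52.5 FPKM in wild-type libraries at 0 h, 59.0 and 46.5 at 36 h, and 38.9 and 21.8 at 96 h. In HMGN1-OE cells the values were 60.6 and 30.2 FPKM, then 45.8 and 47.9, then 32.1 and 34.1. The libraries at 0 and 96 h overlapped in both genotypes. Its change to 96 h was -0.25 in wild-type cells and -0.36 in HMGN1-OE cells in log2 units and was not called on the deposited scale (limma adjusted p = 0.666 and 0.545). Against the library medians it was higher at 96 h, by 1.60 and 0.95 (limma adjusted p = 0.000193 and 0.00465).

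Itgax, the alpha chain of p150,95 that marks many dendritic cells, was at the level of genes without signal in most libraries. It was listed at 0.12 to 0.14 FPKM in the 4 libraries at 0 h and at 0.14 to 0.16 at 36 h. At 96 h it was at 0.36 and 1.01 in wild-type and at 0.24 and 0.30 in HMGN1-OE libraries. These 4 values lay above those of the earlier times, but only a single library passed 1 FPKM, and no test was made.

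The balance of the alpha chains was compared by ratios within a library. Ratios per library are of FPKM, and log2 ratios and their differences are of FPKM + 1, which draws the ratios of low genes toward 1. The ratio of Itgam to Itgal FPKM was 0.240 and 0.113 in wild-type cells and 0.0592 and 0.105 in HMGN1-OE libraries at 0 h. The 36 h values were 0.440 and 0.160 against 0.213 and 0.150, and at 96 h 7.76 and 8.70 against 6.78 and 6.83. Over both genotypes the log2 ratio went from -2.87 ± 0.76 to 2.86 ± 0.16 (SD, n = 4 each), a difference of 5.73 (exact permutation test, two-sided, p = 0.0286, the lowest value open to 4 libraries against 4, with an adjusted p of 0.0571 by Benjamini-Hochberg over the 10 ratio tests made). The ratio of Itgam to Itgb2 went from between 0.0511 and 0.161 to between 1.04 and 1.11, and at 96 h its 4 values were the closest of the 5 ratios. The ratio of Itgal to Itgb2 went from between 0.673 and 0.950 to between 0.127 and 0.162. Both differences (3.23 and -2.50 in log2) had the same exact p of 0.0286 and adjusted p of 0.0571. Without the 1 FPKM added, the 3 differences were 6.04, 3.50 and -2.54, with the same exact p. Among the summed FPKM of the 4 alpha chains that pair with Itgb2, Itgam held between 5.57% and 19.2% at 0 h and between 87.0% and 89.2% at 96 h. Itgal held between 80.0% and 94.0% at 0 h and between 10.3% and 12.8% at 96 h, and Itgax held under 0.5% in every library.

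**Figure D2:**
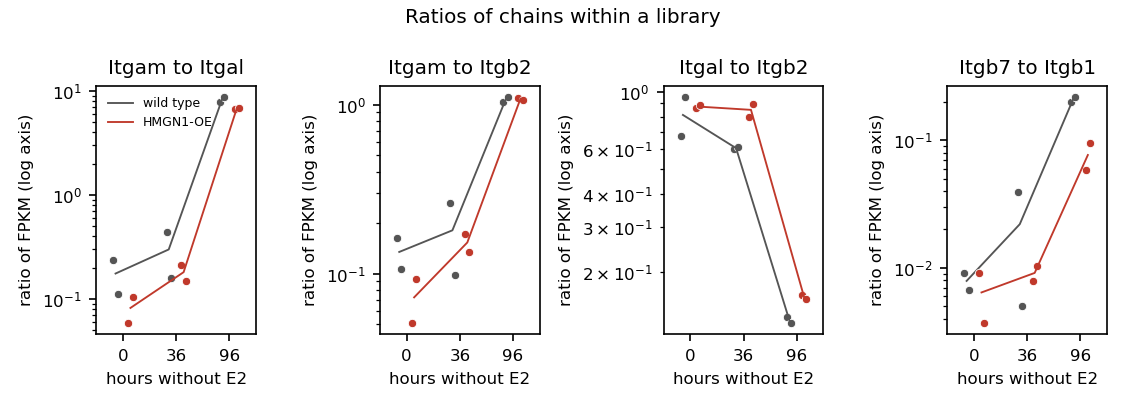
Ratio of FPKM between 2 chains of the same library (log axis) by hours without E2, with a point for each library and a line through the means of each genotype. The ratio of Itgam to Itgal lies between 0.0592 and 0.440 up to 36 h and between 6.78 and 8.70 at 96 h, and that of Itgal to Itgb2 moves the other way.

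Itga4, the alpha chain of VLA-4, had 34.1 and 63.3 FPKM in wild-type libraries at 0 h, 60.8 and 84.5 at 36 h, and 9.86 and 3.75 at 96 h. The HMGN1-OE libraries held 48.7 and 31.6 FPKM, then 40.8 in both, then 8.18 and 11.1. All libraries at 96 h lay below all earlier ones. Itga4 fell by 2.72 in wild-type (6.61-fold lower, standard error 0.53, limma adjusted p = 9.59e-07) and by 1.93 in HMGN1-OE cells (3.81-fold lower, limma adjusted p = 0.000804) in log2 units. On the scale of the library medians it was lower by less, at -0.88 and -0.62 (limma adjusted p = 8.37e-05 and 0.000846).

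Itgb1, the beta chain of VLA-4 and of many matrix receptors, was the most abundant of the 9 transcripts at 0 h, with a median of 97.7 FPKM over the 4 libraries. It had 78.2 and 179.7 FPKM in wild-type libraries at 0 h, 145.3 and 179.4 at 36 h, and 23.9 and 12.8 at 96 h. In HMGN1-OE cells the values were 110.9 and 84.5 FPKM, then 108.0 and 99.8, then 22.4 and 35.1. Itgb1 fell by 2.69 in wild-type (6.46-fold lower, limma adjusted p = 5.09e-06) and by 1.75 in HMGN1-OE cells (3.37-fold lower, limma adjusted p = 0.00406) in log2 units, with differences of -0.84 and -0.44 relative to the library medians (limma adjusted p = 0.000473 and 0.0185). Its call in HMGN1-OE cells was lost without the 0 h library at 110.9 FPKM (adjusted p = 0.0722) or the 96 h library at 22.4 FPKM (adjusted p = 0.101). The ratio of Itga4 to Itgb1 was between 0.352 and 0.439 at 0 h and between 0.294 and 0.412 at 96 h (exact permutation p = 0.343). The difference of the log2 ratio was -0.11, or -0.21 without the 1 FPKM added (exact permutation p = 0.143), and its values without 1 library in turn were between -0.18 and -0.054.

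**Figure D3:**
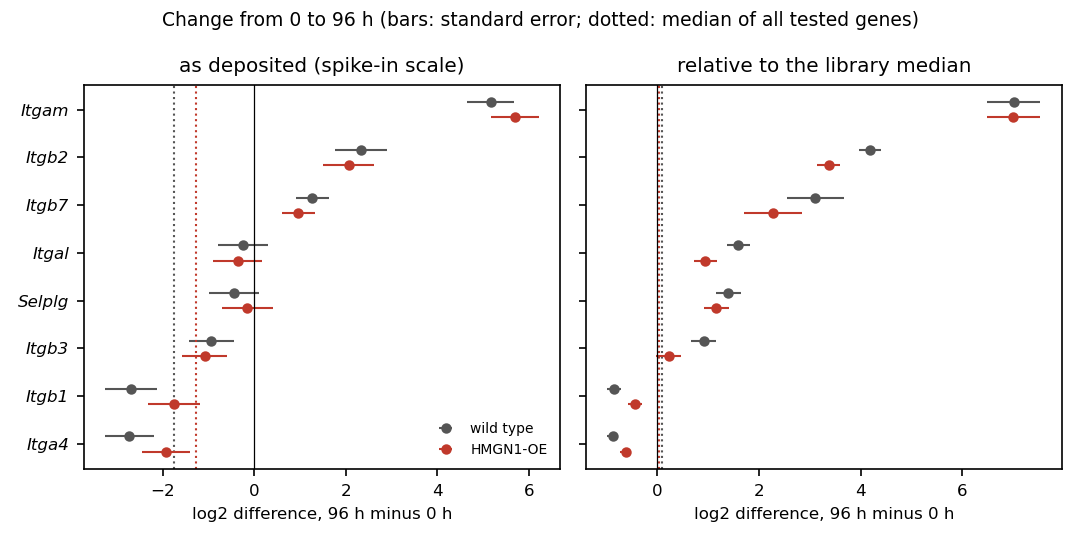
Log2 difference between 96 and 0 h for the 8 tested genes in each genotype, as deposited (left) and relative to the library median (right), with points for the estimates and bars for limma's standard errors. Dotted lines mark the median of all tested genes, -1.75 in wild-type cells and -1.28 in HMGN1-OE cells on the left. Itgal and Selplg lie near 0 on the left and above 0 on the right, while Itgb1 and Itga4 lie below 0 on both.

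Because Itga4 and Itgb1 went down together while Itgam went up, the 250 bases before the RefSeq start sites of these 3 genes are shown. They are from the RefSeq promoter table (GRCm38.p6, which held 5 of the 9 genes), 5′ to 3′ on the gene's strand. Capitals mark GAGGAA, the core of the PU.1 binding motif, or its reverse complement TTCCTC, searched on both strands. The windows lie at chr7:128062390-128062639 (plus strand) for Itgam, chr2:79255176-79255425 (plus strand) for Itga4 and chr8:128685404-128685653 (plus strand) for Itgb1.
Itgam: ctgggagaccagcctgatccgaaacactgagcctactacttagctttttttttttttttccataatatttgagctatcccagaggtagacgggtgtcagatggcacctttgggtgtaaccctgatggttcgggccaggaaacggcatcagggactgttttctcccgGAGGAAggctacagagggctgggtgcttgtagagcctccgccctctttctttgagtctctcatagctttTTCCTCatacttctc
Itga4: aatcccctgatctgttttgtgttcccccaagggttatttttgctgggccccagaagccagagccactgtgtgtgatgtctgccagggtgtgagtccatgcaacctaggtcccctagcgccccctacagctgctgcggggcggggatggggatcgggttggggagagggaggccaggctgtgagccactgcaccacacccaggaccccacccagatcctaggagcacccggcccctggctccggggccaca
Itgb1: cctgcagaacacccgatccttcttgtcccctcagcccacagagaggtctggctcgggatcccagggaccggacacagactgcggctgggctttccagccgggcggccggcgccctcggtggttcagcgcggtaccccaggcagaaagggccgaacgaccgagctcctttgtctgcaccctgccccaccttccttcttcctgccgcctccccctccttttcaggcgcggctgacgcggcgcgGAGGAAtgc
Itgam held 2 matches, which begin 84 and 15 bases before the start site (positions -84 and -15). Itgb1 held 1 at position -9, and Itga4, Itgax and Itgb7 held 0. Of the 32851 windows in the table, 23.3% held the motif. The Itgb1 window was GC-rich, with 68% G or C and 21 CG pairs, against medians of 52.4% and 6 over all windows. Those of Itgam (49.6%) and Itga4 (64%) held 6 CG pairs each. A match of letters is a description and no measurement of binding.

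Itgb7, the alternative beta partner of Itga4, was a low transcript. It had 0.71 and 1.20 FPKM in wild-type libraries at 0 h, 5.67 and 0.90 at 36 h, and 4.76 and 2.78 at 96 h. HMGN1-OE cells had 1.01 and 0.31 FPKM, then 0.85 and 1.04, then 1.30 and 3.34. All 4 libraries at 96 h lay above all 4 at 0 h, but library a at 36 h was the highest of all 12. Itgb7 rose by 1.26 in wild-type (standard error 0.36, limma adjusted p = 0.000837) and by 0.96 in HMGN1-OE cells (limma adjusted p = 0.0146) between 0 and 96 h in log2 units, and was higher by 3.11 and 2.27 relative to the library medians (limma adjusted p = 0.00104 and 0.00690). The calls as deposited were lost when each gene's own variance was used without moderation (adjusted p = 0.117 and 0.230) or genes with low values were kept (0.147 and 0.309), and in HMGN1-OE cells also without the 0 h library at 0.31 FPKM (0.196) or the 96 h library at 3.34 FPKM (0.339). The ratio of Itgb7 to Itgb1 went from between 0.00371 and 0.00913 at 0 h to 0.199 and 0.217 in wild-type cells and 0.0580 and 0.0954 in HMGN1-OE libraries at 96 h (difference 3.33 in log2, exact permutation p = 0.0286, adjusted p = 0.0571). Without the 1 FPKM added, the difference was 4.21. Itgb1 nevertheless remained above Itgb7 in every library.

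Itgb3, a beta chain of platelet and matrix receptors, had 11.2 and 12.8 FPKM in wild-type libraries at 0 h, 11.7 and 21.2 at 36 h, and 9.01 and 3.63 at 96 h. HMGN1-OE cells had 22.3 and 12.3 FPKM, then 11.7 and 12.6, then 7.06 and 7.57. The libraries at 96 h lay below all others. It fell by 1.08 in log2 units in HMGN1-OE cells (limma adjusted p = 0.0399). In wild-type cells its difference was -0.93 and not called (limma adjusted p = 0.0659). The call in HMGN1-OE cells was lost without the 0 h library at 22.3 FPKM (adjusted p = 0.362) or either 96 h library (0.176 and 0.120), and in wild-type cells one was made without the 96 h library at 9.01 FPKM (0.00713). Its direction turned with the scale. Once set against the library medians, Itgb3 was higher at 96 h by 0.91 in wild-type (limma adjusted p = 0.00851) and by 0.23 in HMGN1-OE cells (limma adjusted p = 0.433).

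Selplg, the selectin ligand, had 32.9 and 72.5 FPKM in wild-type libraries at 0 h, 97.5 and 73.1 at 36 h, and 45.4 and 27.8 at 96 h. The HMGN1-OE libraries held 66.0 and 30.8 FPKM, then 54.6 and 60.3, then 36.0 and 45.9. The libraries at 0 and 96 h overlapped. The change from 0 to 96 h was -0.45 in wild-type cells and -0.15 in HMGN1-OE cells on the deposited scale (limma adjusted p = 0.438 and 0.813), and it was 1.40 and 1.16 relative to the library medians (limma adjusted p = 0.000830 and 0.00283). From 36 to 96 h it fell by 1.23 as deposited in wild-type cells (limma adjusted p = 0.0290), and was higher by 1.10 relative to the library medians (limma adjusted p = 0.00323). As deposited, without library a, library b or the 96 h library at 27.8 FPKM the adjusted p was 0.176, 0.0606 and 0.126.

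With the genotypes pooled, the exact permutation test of 96 h against 0 h gave p = 0.0286, the smallest possible, for Itgam, Itgb2, Itga4, Itgb1, Itgb7 and Itgb3 as deposited (0.0351 after adjustment over all tested genes, of which 81.3% were called). It gave 0.486 for Itgal and 0.429 for Selplg. The exact test relative to the library medians gave 0.0286 for 7 genes (adjusted 0.0403, with 71.0% of all genes called) and 0.0571 for Itgb3.

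Between 36 and 96 h, 6 of the 8 genes were called in wild-type cells, Itgam and Itgb2 higher and Itga4, Itgb1, Itgb3 and Selplg lower, against 89.5% of all tested genes (3.15% higher and 86.3% lower). Without library b, 3 of them were called (Itgam, Itga4 and Itgb1), against 82.2% of all genes. Without library a, 6 were called, with Itgb7 in place of Selplg, against 86.6%. In HMGN1-OE cells 4 were called, Itgam and Itgb2 higher and Itga4 and Itgb1 lower, against 69.0% (4.02% higher and 64.9% lower). With centring on the library medians all 8 were called in both genotypes, 6 higher and 2 lower. Of all genes 71.9% were called in wild-type cells (38.2% higher and 33.7% lower) and 61.0% in HMGN1-OE cells (28.6% higher and 32.3% lower).

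Between 0 and 36 h none of the 8 was called by limma in either genotype, where 0.617% of all genes were called in wild-type cells and 1.8% in HMGN1-OE cells. Unadjusted p-values under 0.05 were found for Itgam and Itgb7 in wild-type and for Itgam in HMGN1-OE cells. Itgb7 had a difference of 0.87 in wild-type cells (limma adjusted p = 0.589). Without library b it was 1.78 and called (limma adjusted p = 0.00265), and without library a it was -0.032. The high Itgb7 value of library a accompanied the highest mast cell and basophil sum. The part of these cells in the result was not tested.

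None of the 8 genes was called between the genotypes at 0, 36 or 96 h, on the average over the 3 times or in the genotype-by-time interaction from 0 to 96 h. Of all tested genes, limma called 1.36%, 1.26%, 0.669%, 1.95% and 0.677% in these comparisons. Unadjusted p-values under 0.05 were found as deposited only for Itgb7, at 36 h and on the average. After centring on the library medians none was called either, where 0.104%, 0.0521%, 0.0608%, 0.33% and 0.0347% of all genes were. On that scale unadjusted p-values under 0.05 were found for Itgb3 at 0 h, Itgb2 at 96 h and the interaction of Itgb2. Over all genes, the median of HMGN1-OE minus wild-type was -0.12 at 0 h, -0.54 at 36 h and 0.36 at 96 h.

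At 0 h the Itgam level of HMGN1-OE cells was below that of wild-type cells by 0.61 in log2 units (standard error 0.52, limma adjusted p = 1.0), with both HMGN1-OE libraries below both wild-type libraries. It was the only one of the 8 without overlap at 0 h as deposited, where 7.93% of all genes did not overlap and 4.67% lay lower in HMGN1-OE cells. Relative to the library medians Itgam overlapped at 0 h, while Itga4 (lower) and Itgal and Itgb3 (higher) were free of overlap, as were 37.8% of all genes. Its difference was -0.68 at 36 h (limma adjusted p = 0.496) and -0.087 at 96 h (limma adjusted p = 0.962), both with overlap. At 36 h it was -1.52 without library b (limma adjusted p = 0.701) and 0.16 without library a. An exact permutation test that kept the times separate gave p = 0.120 for Itgam, with a smallest possible value of 0.00926. It gave 0.130 for Itgb7 and between 0.426 and 0.778 for the other 6, and 2.74% of all genes had p under 0.05 before adjustment.

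At 36 h, Itga4, Itgb1, Itgb2 and Selplg were lower in both HMGN1-OE than in both wild-type libraries, by 0.80, 0.63, 0.64 and 0.55 in log2 units. Without library b the differences were -0.57, -0.48, -0.83 and -0.75, and without library a -1.03, -0.78, -0.46 and -0.34, none of them called (limma adjusted p between 0.538 and 0.829). Of all tested genes, 84.4% showed the same order at this time. With the libraries centred, 3 of the 8 did not overlap at 36 h, 1 higher and 2 lower (35.5% of all genes). At 96 h no gene was free of overlap as deposited (13.2% of all genes). With the libraries centred 6 were, 1 higher and 5 lower, where 44.3% of all genes were.

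Itgb7 was lower in HMGN1-OE cells by 0.56 on the average over the times (standard error 0.21, unadjusted p = 0.00690, limma adjusted p = 0.228). Without library b the difference was -0.87 and called (limma adjusted p = 0.00376), and without library a it was -0.26 (limma adjusted p = 1.0). At 36 h it was -0.87 with all libraries (limma adjusted p = 0.496), -1.78 without library b (limma adjusted p = 0.00246) and 0.033 without library a.

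The ratio of Itgal to Itgb2 was the only one of the 5 ratios with an exact p under 0.05 between the genotypes. It was 0.673 and 0.950 in wild-type cells and 0.863 and 0.887 in HMGN1-OE libraries at 0 h, 0.597 and 0.609 against 0.800 and 0.898 at 36 h, and 0.133 and 0.127 against 0.162 and 0.157 at 96 h. The genotypes overlapped at 0 h and not at 36 or 96 h, with HMGN1-OE above. The difference of the log2 ratio was 0.30 (exact permutation test within times, two-sided, p = 0.0278, adjusted p = 0.0571), and p was between 0.00926 and 0.0556 without 1 library in turn. It was 0.0556 without the wild-type library at 0.673 or the HMGN1-OE library at 0.887. The ratio of Itgam to Itgal was lower in HMGN1-OE cells by 0.57 (exact permutation p = 0.111), by 0.79 without library b (exact permutation p = 0.0185) and by 0.34 without library a (exact permutation p = 0.287). That of Itgb7 to Itgb1 was lower by 0.47 (exact permutation p = 0.278), by 0.83 without library b (exact permutation p = 0.0463) and by 0.12 without library a (exact permutation p = 0.713).

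Some cell type markers were called between the genotypes as deposited where the 8 genes were not, but none of these calls was made relative to the library medians. The primary granule genes Elane and Mpo were below wild type in HMGN1-OE cells at 0 h (log2 differences -2.74 and -2.37) and, with Ctsg, higher at 96 h (2.50, 2.39 and 2.48). Of 10 listed late neutrophil genes, Camp, Mmp8, Ngp and S100a9 were lower at 36 h (-2.27, -2.79, -2.12 and -2.62). Mmp9 and Retnlg were lower at 96 h (-2.07 and -1.66). At each time the rest of the list was not called, S100a9 at 96 h aside. Retnlg at 36 h had 1.03 and 0.27 FPKM in HMGN1-OE against 0.31 and 0.21 in wild-type libraries. S100a8 at 96 h had 54572 and 83718 against 69948 and 29366 in the same order. Without the HMGN1-OE library of the lower values at 36 h, Camp, Ngp and S100a9 differed by -1.26, -0.97 and -1.14. At 36 h Camp and Ngp were not called without library b (-2.53 and -2.48, limma adjusted p = 0.0663 and 0.0952) or without library a (-2.02 and -1.76, limma adjusted p = 0.278 and 0.538). S100a9 was not called without library a (-2.29, limma adjusted p = 0.182). Without the wild-type library of the lowest values at 96 h, Elane, Mpo and Ctsg differed by 1.24, 0.88 and 1.32 and were not called (limma adjusted p = 1.0 for each). S100a9 was also called, as higher in HMGN1-OE cells, at 96 h, where 1 wild-type library lists it at 0.051 FPKM and the other at 26546. The basophil protease Prss34 and the globin gene Hba-a1 were higher at 0 h (2.60 and 1.23). Without the HMGN1-OE library of the higher values at 0 h they differed by 1.76 and 0.49. Prss34 was 1 of 7 tested mast cell and basophil markers, whose median difference at 0 h was 0.0029, and Hba-a1 was 1 of 2 tested erythroid markers. Of the calls named here at a single time, that of Mmp8 alone was kept whichever library was left out. The limma adjusted p of these calls, that of S100a9 at 96 h aside, was between 1.06e-06 and 0.0328. The part of these cells in the values of the integrin genes was not tested.

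**Figure D4:**
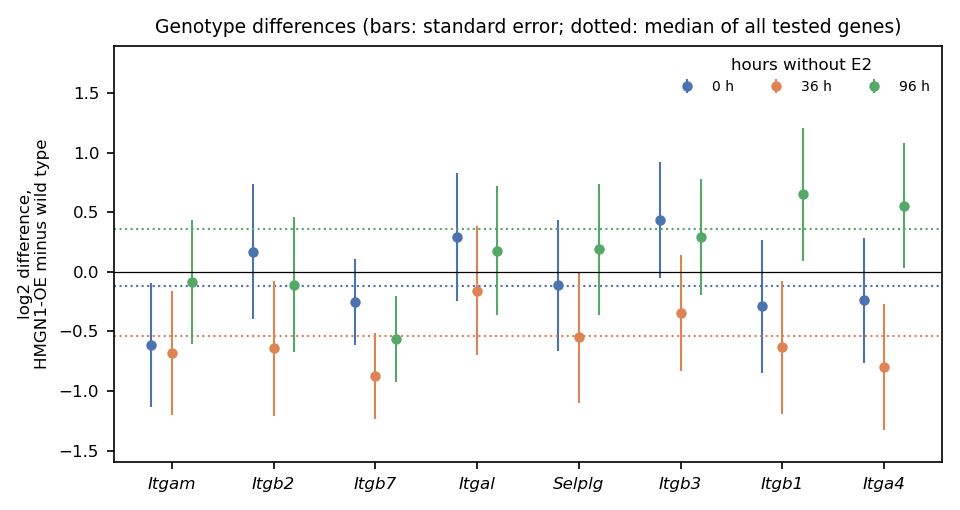
Log2 difference of HMGN1-OE minus wild-type for the 8 tested genes at 0, 36 and 96 h as deposited, with points for the estimates and bars for limma's standard errors. Dotted lines mark the median of all tested genes at each time (-0.12, -0.54 and 0.36). At 36 h all 8 points lie below 0, and at 0 h that of Itgam is the lowest, at -0.61.

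Among the other integrin subunits, 8 of 18 genes were tested and 6 were at or below 0.2 FPKM in every library. From 0 to 96 h in wild-type cells, 1 gene rose and 6 fell on the deposited scale, and 2 were higher and 1 lower relative to the library medians. In HMGN1-OE cells the counts were 1 and 6, then 2 and 2. These counts, and those of the lists that follow, stand beside 4.31% higher and 77.2% lower of all tested genes in wild-type cells as deposited (5.08% and 62.4% in HMGN1-OE cells), and 36.5% and 33.8% relative to the library medians (30.9% and 32.5%). Itga1, a collagen receptor chain, rose from 0.22 and 0.41 FPKM to 2.95 and 1.88 (log2 difference 1.36, limma adjusted p = 0.000145, and 3.21 relative to the library medians). Before 96 h it reached 1 FPKM only in library a at 36 h. Itga1 thus passed the filter through the time at which it was high, and its p-value is not free of that selection. Itga6, a laminin receptor chain of progenitors, fell from 48.9 and 77.3 to 7.83 and 3.44 FPKM (log2 difference -3.32, limma adjusted p = 3.42e-09, and -1.47 relative to the library medians). Itga2b, the platelet partner of Itgb3, had 4.31 and 4.32 FPKM at 0 h and 6.99 and 4.70 at 96 h in wild-type libraries. Its difference of 0.34 there was not called as deposited (limma adjusted p = 0.474) and was 2.19 relative to the library medians (limma adjusted p = 0.00184). In HMGN1-OE cells Itga2b fell by 1.25 as deposited (limma adjusted p = 0.0112) from 11.3 and 4.06 FPKM to 1.34 and 3.67, and differed by 0.059 relative to the library medians (limma adjusted p = 0.911). As deposited it was -0.61 without the library at 11.3 FPKM (limma adjusted p = 0.379) and -0.76 without that at 1.34 FPKM (limma adjusted p = 0.292). Itga8 at 0 h had 9.39 and 3.57 FPKM in wild-type libraries, with 22.1 and 21.8 in HMGN1-OE libraries, and was called between the genotypes (log2 difference 1.74, limma adjusted p = 0.000875). It was not called relative to the library medians, or without the wild-type library at 3.57 FPKM (1.14, limma adjusted p = 0.901). In wild-type cells at 36 h Itga8 was at 0.24 FPKM in library a and at 12.5 in library b.

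Of 13 tested genes that switch integrins to their active state (16 in the list), 0 rose and 7 fell in wild-type cells by 96 h on the deposited scale, and 9 were higher and 1 lower relative to the library medians. In HMGN1-OE cells 0 rose and 3 fell as deposited, and 9 were higher and 0 lower relative to the medians. Fermt3 (kindlin-3), needed for the activation of leukocyte integrins, had 160 and 240.3 FPKM at 0 h and 91.9 and 45.4 at 96 h in wild-type libraries. Tln1, the main talin, had 56.8 and 101.6 FPKM and then 83.3 and 41.0, a difference of -0.37 as deposited (limma adjusted p = 0.534) and 1.47 relative to the library medians (limma adjusted p = 1.56e-05). Fyb, an adaptor that links receptors to integrin activation, was lower in HMGN1-OE cells at 36 h (2.60 and 3.35 against 18.4 and 7.60 FPKM, log2 difference -1.71, limma adjusted p = 0.0126) and on the average over the times (-1.27, limma adjusted p = 8.45e-05). The difference at 36 h was -2.30 without library b (limma adjusted p = 0.00307) and -1.12 without library a (limma adjusted p = 0.538), and its call was also lost without either HMGN1-OE library. Neither call was made relative to the library medians. Of 6 tested integrin inhibitors, 0 rose and 4 fell in wild-type cells on the deposited scale, and 5 were higher and 0 lower relative to the library medians. In HMGN1-OE cells 1 rose and 1 fell as deposited, and 5 were higher and 0 lower relative to the medians. Flna (filamin A), which competes with talin for beta chain tails, and Sipa1, which turns off Rap1, were 2.31 and 1.28 higher on that scale in wild-type cells (limma adjusted p = 3.85e-06 and 3.22e-05). Flna was the gene that rose as deposited in HMGN1-OE cells, by 1.25 (limma adjusted p = 0.0480, lost whichever of the 4 libraries was left out), and differed by 0.46 in wild-type cells (limma adjusted p = 0.455). Among the activators, the minor talin Tln2 and the Rap1 exchange factor Rapgef3 fell by 2.27 and 2.44 in wild-type cells as deposited (limma adjusted p = 1.09e-07 and 1.94e-08). Tln2 differed by -0.43 relative to the library medians and was not called (limma adjusted p = 0.532). Rapgef3 was lower by 0.59 there in wild-type cells (limma adjusted p = 0.0201), and its HMGN1-OE difference was 0.20 (limma adjusted p = 0.367).

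Of 18 tested genes that signal from bound integrins (21 in the list), 3 rose and 5 fell in wild-type cells on the deposited scale, and 14 were higher and 1 lower relative to the library medians. The counts in HMGN1-OE cells were 4 and 3, then 13 and 2. Fgr, a Src-family kinase of neutrophils, rose from 0.55 and 0.28 FPKM to 31.1 and 16.8 in wild-type libraries (log2 difference 4.08, limma adjusted p = 2.28e-23). It was under 1 FPKM in every library at 0 and 36 h. Fgr thus passed the filter only through the libraries at 96 h, and its p-value is not free of that selection. The adaptor Tyrobp (DAP12) rose from 57.8 and 180.8 to 961.9 and 621.1 FPKM (log2 difference 2.90, limma adjusted p = 2.71e-06). Btk, a kinase of the Tec family, fell by 2.58 (limma adjusted p = 1.38e-05), and the exchange factor Vav3 fell by 2.04 (limma adjusted p = 0.000142), both in wild-type cells as deposited. Relative to the library medians Btk was lower by 0.74 in wild-type cells (limma adjusted p = 0.000425), and Vav3 differed by -0.20 and was not called (limma adjusted p = 0.196). In HMGN1-OE cells Btk and Vav3 were lower by 0.55 and 0.67 on that scale (limma adjusted p = 0.00284 and 0.00173). For both Fgr and Tyrobp the libraries at 96 h lay above those at 0 h in HMGN1-OE cells as well, with log2 differences of 4.18 and 3.81. The wild-type differences of Fgr and Tyrobp relative to the library medians were 5.93 and 4.75.

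Of the 19 integrin ligands, 9 were tested, with 2 higher and 4 lower in wild-type cells as deposited and 5 and 2 relative to the library medians. For HMGN1-OE cells they were 3 and 3, then 5 and 2. C3, whose fragment iC3b is a ligand of Mac-1, rose from 16.8 and 42.4 to 404.7 and 168.9 FPKM (log2 difference 3.24, limma adjusted p = 4.60e-08). Vcam1, the ligand of VLA-4 on stroma, was between 0.11 and 0.49 FPKM in all libraries. Icam2, a ligand of LFA-1, fell by 3.28 (limma adjusted p = 1.44e-08), and Pecam1 (CD31), which can bind integrin alpha-V, fell by 3.35 (limma adjusted p = 1.95e-08). Spp1 (osteopontin), a ligand of alpha-4 and alpha-V integrins, had 26.6 and 84.3 FPKM at 0 h and 131.9 and 95.7 at 96 h, and rose by 1.22 (limma adjusted p = 0.0354), all as deposited in wild-type cells. Without the 0 h library at 26.6 FPKM the difference of Spp1 was 0.41 (limma adjusted p = 0.541), and without the 96 h library at 131.9 FPKM it was 0.99 (limma adjusted p = 0.0835). The differences of C3, Icam2, Pecam1 and Spp1 relative to the library medians were 5.08, -1.43, -1.51 and 3.07.

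Of the selectins and other selectin ligand proteins, 5 of 8 were tested. In wild-type cells 4 of them fell as deposited, and 1 was higher and 2 lower relative to the library medians. In HMGN1-OE cells 3 fell as deposited, with the same counts relative to the medians. Cd34, a progenitor sialomucin, fell from between 466.5 and 694.9 FPKM at 0 h to between 2.06 and 6.18 at 96 h. Glg1, an E-selectin ligand, fell by 2.16 in wild-type cells (limma adjusted p = 0.000106), and was lower by 0.32 relative to the library medians (limma adjusted p = 0.0193). Cd24a, a P-selectin ligand, differed in wild-type cells by 0.55 (limma adjusted p = 0.345) and by 2.40 relative to the library medians (limma adjusted p = 0.00330). In HMGN1-OE cells these differences were -0.047 and 1.27 and were not called (limma adjusted p = 0.943 and 0.0648). Of 15 tested genes that glycosylate or sulfate selectin ligands (18 in the list), 0 rose and 11 fell in wild-type cells on the deposited scale, and 6 were higher and 4 lower relative to the library medians. In HMGN1-OE cells the counts were 0 and 9, then 5 and 6. Fut7, the fucosyltransferase that makes Selplg bind selectins, had 9.69 and 22.9 FPKM at 0 h and 8.14 and 3.93 at 96 h in wild-type libraries. The galactosyltransferase gene B4galt4 and the sulfate donor synthase gene Papss2 fell by 4.57 and 4.27 in wild-type cells (limma adjusted p = 1.78e-17 and 3.36e-13), with differences of -2.72 and -2.42 relative to the library medians. Tpst1, a tyrosine sulfotransferase, and Gcnt1, which builds core 2 O-glycans, were 1.80 and 1.35 higher relative to the library medians (limma adjusted p = 0.00519 and 0.000706), and differed by -0.043 and -0.50 as deposited (limma adjusted p = 0.901 and 0.323), all in wild-type cells. In HMGN1-OE cells the differences relative to the library medians were 1.08 and 1.02 (limma adjusted p = 0.0553 and 0.00402). Tpst1 had 0.23 and 0.41 FPKM at 0 h and 0.42 and 0.15 at 96 h in wild-type libraries, near the level of genes without signal. A gene that stays near that level comes out higher against the falling medians. The call of Tpst1 relative to the medians therefore shows no rise of its transcript.

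The genes most like each of the 8 tested genes over the 12 libraries, by Pearson's r of values relative to the library medians, were found among the tested genes outside the members. These points share libraries and the change with time, so r is a description. Itgam was nearest to Aldh3b1 (r = 0.998), an aldehyde dehydrogenase, and Itgb2 to Gpsm3 (r = 0.999), a regulator of G protein signalling. Gpsm3 went from 18.0 and 31.8 FPKM at 0 h to 85.6 and 45.5 at 96 h in wild-type libraries. Itgal was nearest to Atp6v0d1 (r = 0.980) and Selplg to Smpd1 (r = 0.988), a subunit of the vacuolar proton pump and the acid sphingomyelinase. Itga4 was nearest to Mrps9 (r = 0.990), a mitochondrial ribosomal protein, followed by Btk (r = 0.989). Itgb1 was nearest to Pet112 (r = 0.981) and Gclc (r = 0.980), a subunit of the enzyme that starts glutathione synthesis, and Itgb3 to the histone deacetylase gene Hdac7 (r = 0.975). Itgb7 was nearest to Asb2 (r = 0.986), followed by Prg3 and Adam8 (r = 0.985 for both). Prg3, an eosinophil granule protein, had 10.7 FPKM in library a and 0.87 in library b, and 96.4 and 36.4 FPKM in wild-type against 9.15 and 23.6 in HMGN1-OE libraries at 96 h. Among the members, r was 0.989 between Itgam and Itgb2, 0.924 between Itga4 and Itgb1, and -0.958 between Itga4 and Itgb2.

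In the GENCODE annotation the transcription units of Itgam and Gm49368 overlap on the same strand, and those of Itga4 and Cerkl overlap on opposite strands. The assignment of reads to Itgam and Itga4 carries this uncertainty, for Itga4 because the library kit does not mark strand. Gm49368 was not matched in the table used here. Cerkl, listed at between 0.18 and 5.38 FPKM, was below Itga4 in every library. Itgam, Itgal and Itgax lie on chromosome 7, Itgb2 on chromosome 10, Itga4 on chromosome 2, Itgb1 on chromosome 8, Itgb7 on chromosome 15, Itgb3 on chromosome 11 and Selplg on chromosome 5.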

How the data were processed

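RNA from a fixed number of counted cells was sequenced with added ERCC RNAs (TruSeq v2, NextSeq500). The authors deposited FPKM per gene and library, normalized by loess to the ERCC RNAs. The submitters' processing notes name mm9, HISAT and Cufflinks 2.0.0 and the paper's methods name Bowtie, so the aligner is not settled. Read counts were not used here, so depth and counting error are unknown. Symbols were matched to GENCODE vM21 and RefSeq tables.

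Differences were taken on log2(FPKM + 1), which understates changes of low genes, after a filter of 1 FPKM in 2 of the 12 libraries. limma 3.58.1 (R 4.3.3, eBayes with trend) was fitted to the 6 group means with two-sided tests, and the fit was tested on simulated data. On the deposited scale its prior degrees of freedom were infinite, so a gene's variance came from the trend, not from its own libraries. Relative to the library medians they were 2.87, so each gene's own spread entered. Permutation tests used Python 3.11.15, and 2 libraries against 2 cannot go below 0.333.

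The alternatives were a pseudocount of 0.1, no filter, a mean of 5 FPKM, centring on the library median, quantile normalization, only the groups compared, no trend, limma's robust option, no moderation, each library left out and, chosen after the values were seen, chain ratios with no pseudocount. The members and lists were chosen with earlier results of these data known. Genes of the other lists are named if called between genotypes, or from the 2 largest rises and falls relative to the library median from 0 to 96 h in wild-type cells, and up to 3 per member by likeness. Of the marker lists, the sums and the genes called between genotypes are given, with others chosen after their values were seen. These others are Flt3, Csf1r, Cd3d, Tpsb2, Cd79b, Cpa3 and S100a8. Fermt3, Vcam1 and Fut7 were also chosen after their values were seen. A gene of the selectin list is not reported here and was left out of its counts.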

Additional observations from a re-analysis of the deposited data

How the results depend on the processing

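Relative to the library medians and after quantile normalization, 8 of the 8 genes were called in wild-type cells between 0 and 96 h and 8 in HMGN1-OE cells between 36 and 96 h, where quantile normalization called 72.3% and 64.7% of all genes. With only the groups compared, 3 were called in wild-type cells between 36 and 96 h and 1 in HMGN1-OE cells between 0 and 36 h (Itgam), against 83.9% and 4.27% of all genes. The sign turned relative to the medians, and after quantile normalization, for Itgal (1.60 and 1.82 in wild-type cells, 0.95 and 1.07 in HMGN1-OE cells), Itgb3 (0.91 and 0.92, 0.23 and 0.25) and Selplg (1.40 and 1.62, 1.16 and 1.30) between 0 and 96 h. It also turned for Itgb3 (1.02 and 1.01) and Selplg (1.10 and 1.37) between 36 and 96 h in wild-type cells, and for the interaction of Itgam (-0.0064 and -0.21). Relative to the medians it turned as well from 36 to 96 h for Itgal in each genotype and, with HMGN1-OE, for Itgb3 (0.68) and Selplg (0.85), all called on that scale only. In all, 24 differences turned, of which 12 were called on neither scale, most of them between the genotypes. These settings remove the fall of the median. The calls of Itgam and Itga4 between 0 and 96 h held in both genotypes under all settings tried.

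Without 1 library in turn, the number called was 0 to 1 for wild-type cells at 36 against 0 h, 3 to 6 at 96 against 36 h, and 4 in HMGN1-OE cells at 96 against 0 h. It was 0 to 1 between the genotypes at 36 h and on the average. The shares of all genes called were 0.408% to 1.86%, 79.9% to 91.1%, 33.6% to 63.3%, 0.738% to 2.01% and 1.35% to 2.83% in these comparisons. Changes from 0 to 96 h ranged from -0.83 to 0.33 for Itgal and from -1.01 to 0.11 for Selplg in wild-type cells, and from -0.85 to 0.13 and -0.69 to 0.39 in HMGN1-OE cells. That of Itgb7 in wild-type cells from 0 to 36 h ranged from -0.032 to 1.78. Itgam between the genotypes ranged from -1.52 to 0.16 at 36 h and from -0.42 to 0.25 at 96 h. The ratios between the genotypes ranged from 0.22 to 0.38 for Itgal to Itgb2, from -0.79 to -0.34 for Itgam to Itgal and from -0.83 to -0.12 for Itgb7 to Itgb1.

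No paired analysis was possible because the columns carry no replicate number of the sample names. With 2 libraries a group and no counts, differences of the size seen between replicates could not be resolved.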
